A study of Mus musculus with 6 samples.

Results

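Retinoic acid is made, trapped, degraded and sensed by a small group of proteins, and 9 of their genes were followed here in organoids of the mouse esophagus and stomach: *Aldh1a1*, *Aldh1a2*, *Aldh1a3*, *Rdh10*, *Dhrs3*, *Crabp2*, *Rara*, *Rarb* and *Rarg*. The genes were chosen by name, and every non-control probe that carried one of these names was taken, whatever its level. This gave 12 probes for the 9 genes, out of 55681 probes under 34298 gene names. *Rara* had 2 probes, *Rarb* had 3 and each other gene had 1.

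The series set squamous esophageal against columnar gastric epithelium, grown as organoids from adult stem cells, on 6 single-color Agilent mouse arrays. There were 3 esophagus arrays and 3 stomach arrays, 1 of each from mice numbered 1, 2 and 4, all at passage 0. Stomach glands were taken from the corpus. The harvest was on day 8 for every culture but 1, the stomach culture of mouse 4 (day 7). The titles mark all 6 samples as controls. The labels give no genotype, strain, age or sex, and the study's methods name female wild-type C57BL/6 mice without tying them to these arrays. Both media held B27, a supplement whose standard form contains a retinol ester, together with EGF, noggin, FGF-10, a ROCK inhibitor and a TGF-β receptor kinase inhibitor. The stomach medium also held WNT3A, R-spondin1 and gastrin, and the esophagus medium held forskolin in their place. Tissue and medium therefore changed together in every comparison, and their effects cannot be told apart.

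Cells take up retinol and oxidize it in 2 steps. RDH10 and related dehydrogenases convert retinol to retinal, which DHRS3 can reduce back to retinol, and the ALDH1A enzymes oxidize retinal irreversibly to retinoic acid. CRABP proteins carry retinoic acid in the cytosol, CYP26 enzymes degrade it, and the receptors RARA, RARB and RARG bind it in the nucleus as partners of RXR proteins on repeated hexamers in the DNA of target genes. In stratified squamous epithelia the pathway is known for restraining keratinization, and *Rarb* and *Cyp26a1* are textbook direct targets that rise when retinoic acid is present.

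Because these 2 genes carry the classical receptor element in their promoters, the 100 bases before an annotated start of each gene are shown, from RefSeq on the build GRCm38.p6. Sequences run 5′ to 3′ on the strand of the gene. Capitals mark a DR5 element, here any pair of receptor hexamers in the same direction with 5 bases between them, searched on both strands. A hexamer was A or G, then G, then G or T, then TCA. The *Rarb* stretch lies at chr14:16575477-16575576 on the minus strand, and the *Cyp26a1* stretch at chr19:37697708-37697807 on the plus strand.
Rarb: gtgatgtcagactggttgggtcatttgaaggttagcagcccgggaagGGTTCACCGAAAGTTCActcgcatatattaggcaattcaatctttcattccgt
Cyp26a1: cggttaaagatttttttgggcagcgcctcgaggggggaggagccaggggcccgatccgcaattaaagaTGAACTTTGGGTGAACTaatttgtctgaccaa

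The element ends 36 bases before the start shown for *Rarb* and 15 bases before that shown for *Cyp26a1*, where it reads on the opposite strand. A gene can have several starts, and those of the transcripts that the probes read were not examined. Of all 32851 promoter windows, which run from 250 bases before to 50 bases after a gene start, 32 held such an element (0.0974%). Windows were at hand for 6 of the 9 genes, *Aldh1a1*, *Aldh1a2*, *Dhrs3*, *Rara*, *Rarb* and *Rarg*, 13 windows in all, and *Rarb* alone held a DR5. The same hexamers with 1 base between them (DR1, in 0.222% of all windows) or 2 bases (DR2, in 0.268%) were in none of the 13 windows. *Aldh1a3*, *Crabp2* and *Rdh10* had no entry.

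The arrays measured the labelled epithelia. By the brightest probe of each gene, 7 of 8 squamous markers were higher in esophagus and all 10 columnar markers were higher in stomach. The exception was *Trp63*, whose brightest probe differed by -1.22, esophagus minus stomach on the log2 scale, while its 3 other probes were not well above background in stomach and at least 49.6-fold to 299-fold higher in esophagus. The scanner software flags a spot as well above background when its signal clears the local one, and 45.5% to 51.1% of the non-control spots on an array carried this flag. No spot was saturated. None of 8 fibroblast markers carried the flag on all 3 arrays of either tissue, and their mean log2 level ranged from 4.75 to 4.97 in esophagus and from 4.99 to 5.03 in stomach. Of 5 mesothelial markers, 2 were higher in stomach and 3 were well above background on no array. Of 6 immune markers, *Ptprc* was well above background on no array, *Cd79a* was on 2 of 3 arrays of each tissue, and 4 were on all 6 arrays: *Cd68*, *Cd3e* and *Csf1r*, which were not called, and *Itgam*, which was higher in stomach (-2.62). The part of immune RNA in the results below was not tested. *Tubb3* and *Elavl4*, 2 of 5 nerve and glia markers, were higher in esophagus. None of 5 smooth muscle and none of 5 endothelial markers passed the test. Among them *Tagln*, *Kdr* and *Pecam1* were well above background on all 6 arrays. Their means were 9.69, 8.89 and 5.92 in esophagus and 9.61, 8.64 and 6.11 in stomach.

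The question for the 9 genes was which of them differed between the tissues. Levels are log2 units of the authors' normalized table, differences are esophagus minus stomach, means are given with SD (n = 3), and a gene was called at an adjusted p under 0.05 in limma with Benjamini-Hochberg adjustment over all 55681 probes. In esophageal organoids *Crabp2*, *Aldh1a3* and *Rarg* were higher, and in stomach organoids *Aldh1a1*, *Rdh10* and *Rara* were higher. *Dhrs3* and *Rarb* did not pass the test, and *Aldh1a2* was not well above background. In all, 7 of the 12 probes were called, 3 higher in esophagus and 4 higher in stomach, where 12.2% of all probes were called, 5.94% higher in esophagus and 6.22% higher in stomach. The 2 tissues did not overlap at these same 7 probes, against 28.6% of all probes. The folds of the called probes ran from 2.69 to 43.3, and the median difference of the 12 probes was -0.32 against 0.02 over all probes. By the rule the methods name, an unadjusted p under 0.05 and a 1.5-fold change, 8 of 12 probes passed against 18.1% of all probes, *Dhrs3* being the addition. In whole organoids, fewer cells of a type and less RNA per cell cannot be told apart.

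**Figure D1:**
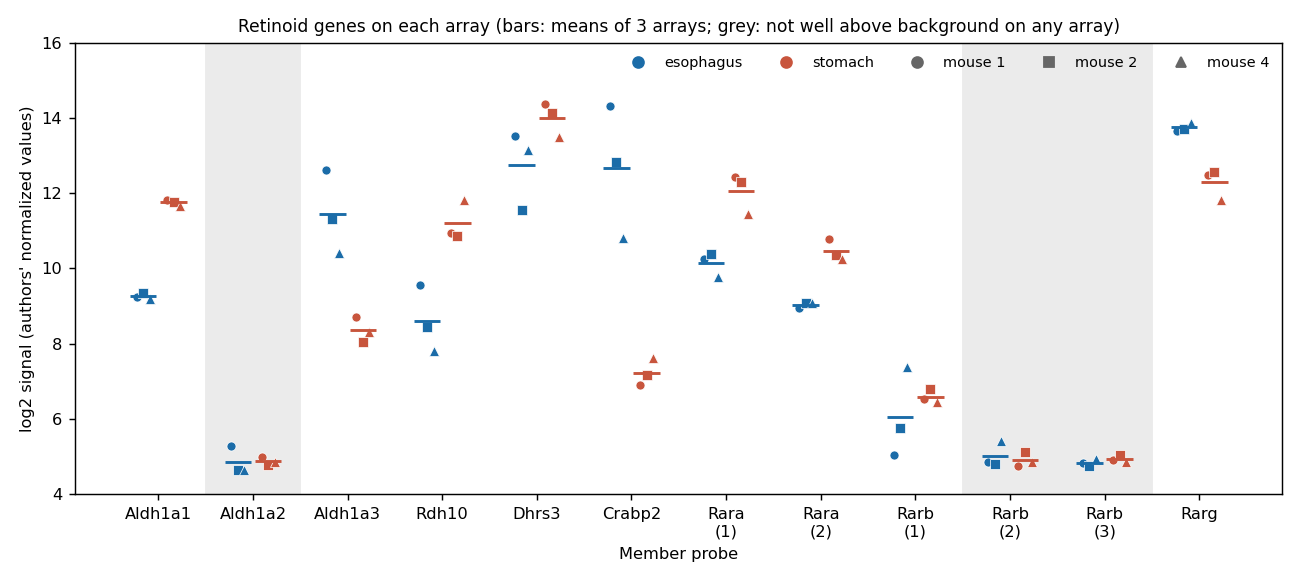
Log2 level of each of the 12 probes on the 6 arrays, with esophagus in blue, stomach in red, 1 symbol per mouse a bar at the mean of each tissue and grey shading where no array was well above background. The tissues are apart for *Aldh1a1*, *Aldh1a3*, *Rdh10*, *Crabp2*, *Rarg* and both *Rara* probes, and the points of *Aldh1a2* and of 2 of the 3 *Rarb* probes lie near the floor of the scale.

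The retinal oxidizing enzymes differed in opposite directions. *Aldh1a1* (probe at chr19:20717764-20717823, mm9, plus strand, transcript NM_013467) was at 9.24, 9.35 and 9.19 in the esophageal organoids of mice 1, 2 and 4 and at 11.83, 11.78 and 11.67 in the stomach organoids of the same mice. The 3 stomach arrays lay far above the 3 esophagus arrays, and the SD was 0.08 in each tissue. The difference was -2.50 (95% interval -2.82 to -2.18), 5.64-fold higher in stomach, with an adjusted p of 1.67e-05 in limma. Its interval was the narrowest of the 7 called probes, and the difference was -2.58, -2.43 and -2.47 within mice 1, 2 and 4. *Aldh1a7*, a gene closely related to *Aldh1a1* in sequence and chosen for comparison after its values were seen, was bright in both tissues and differed by -0.27 (95% interval -0.85 to 0.31). Cross-hybridization between the 2 genes was not tested.

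*Aldh1a3* (chr7:73535785-73535844, minus strand, NM_053080) was at 12.61, 11.32 and 10.42 in esophagus and at 8.70, 8.05 and 8.31 in stomach. Every esophagus array was above every stomach array, and the esophagus arrays were spread more widely (11.45 ± 1.10) than the stomach arrays (8.36 ± 0.33). The difference was 3.09 (95% interval 1.94 to 4.25), 8.52-fold higher in esophagus, with an adjusted p of 0.00543 in limma. Within mice it was 3.91, 3.27 and 2.10. Where a probe lies in a transcript decides which forms it can read, and this one holds the hexamer of the poly(A) signal, AATAAA, which precedes the 3′ end of most transcripts. The last 30 of its 60 bases are shown, with the hexamer in capitals.
Aldh1a3: gttcagcaatgaaaaAATAAAgttggacac

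*Aldh1a2* (chr9:71143931-71143990, plus strand, NM_009022), the main retinoic acid producing enzyme of mesenchyme and mesothelium, was at 5.29, 4.65 and 4.65 in esophagus and at 4.99, 4.79 and 4.87 in stomach. Its probe was not well above background on any of the 6 arrays, so no fold is given. Beside it, the fibroblast markers were near the floor, and of the 5 mesothelial markers *Wt1*, *Lrrn4* and *Upk1b* were well above background on no array, whereas *Msln* (-10.98) and *Upk3b* (at least 2.41-fold) were higher in stomach. Of the 3 members of the family, *Aldh1a3* was thus higher in esophagus and *Aldh1a1* in stomach.

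*Rdh10* (chr1:16122062-16122121, plus strand, NM_133832), which makes retinal from retinol, was at 9.56, 8.44 and 7.82 in esophagus and at 10.95, 10.87 and 11.83 in stomach. All 3 stomach arrays (11.22 ± 0.53) were above all 3 esophagus arrays (8.61 ± 0.88). The difference was -2.61 (95% interval -3.65 to -1.57), 6.11-fold higher in stomach, with an adjusted p of 0.0075 in limma. Within mice 1, 2 and 4 it was -1.39, -2.43 and -4.01, and without both arrays of mouse 4 it was -1.91 (adjusted p 0.0149).

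*Dhrs3* (chr4:144517485-144517544, plus strand, NM_001357276), whose product returns retinal to retinol, was bright in both tissues. It was at 13.51, 11.55 and 13.14 in esophagus and at 14.37, 14.13 and 13.50 in stomach. The esophagus array of mouse 2 was the lowest, and the esophagus array of mouse 1 lay just above the stomach array of mouse 4, so the tissues overlapped (12.74 ± 1.04 and 14.00 ± 0.45). The difference of -1.26 (95% interval -2.40 to -0.12) had an unadjusted p of 0.0344 and an adjusted p of 0.164 in limma and was not called, although it was negative in each mouse (-0.86, -2.57 and -0.35). Without the esophagus array of mouse 2 it was -0.67 (adjusted p 0.255). Its probe holds the same hexamer near its end.
Dhrs3: agaaacgcaaAATAAAgaggtggctttcgc

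*Crabp2* (chr3:87757207-87757266, plus strand, NM_007759), the cytosolic protein that delivers retinoic acid to its receptors, had the largest difference of the 12 probes. It was at 14.33, 12.84 and 10.81 in esophagus and at 6.91, 7.16 and 7.61 in stomach. The esophagus arrays (12.66 ± 1.77) ranged over more than 3 log2 units and still lay above every stomach array (7.22 ± 0.36). The difference was 5.43 (95% interval 3.66 to 7.21), 43.3-fold higher in esophagus, with an adjusted p of 0.00278 in limma. Within mice it was 7.42, 5.68 and 3.20. Single arrays moved its size but not its call, to 4.60 without the esophagus array of mouse 1 and to 6.36 without that of mouse 4.

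**Figure D2:**
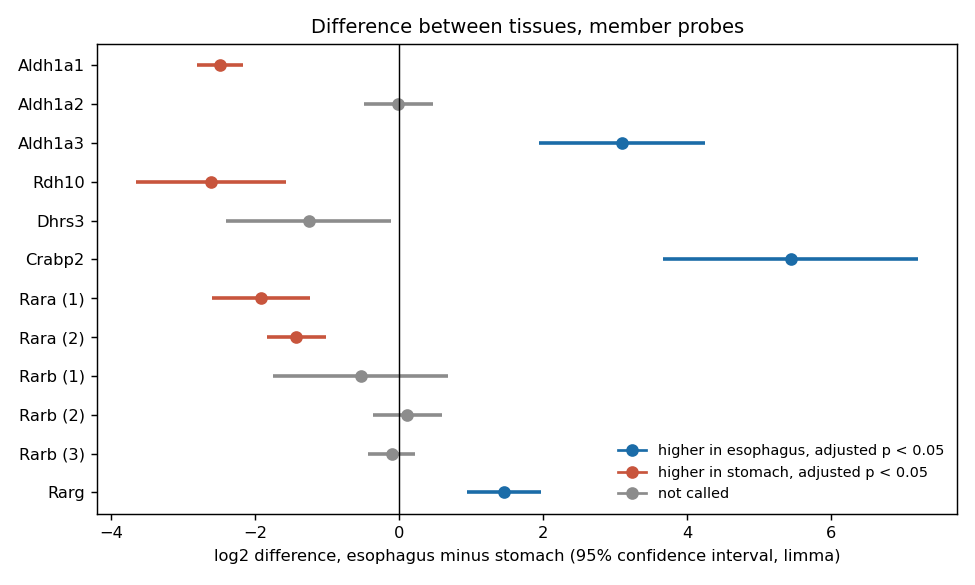
Difference in log2 level, esophagus minus stomach, for each of the 12 probes. The point is the fitted difference and the bar its 95% interval in limma, in grey where the probe was not called. The intervals of the 7 called probes exclude 0.

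Of the receptors, *Rara* and *Rarg* differed in opposite directions. *Rarg* (chr15:102065371-102065430, minus strand, NM_011244), the main retinoic acid receptor of the epidermis, was at 13.66, 13.71 and 13.88 in esophagus and at 12.49, 12.57 and 11.82 in stomach. It was bright everywhere, and the esophagus arrays (13.75 ± 0.11) were all above the stomach arrays (12.29 ± 0.41). The difference was 1.46 (95% interval 0.94 to 1.97), 2.75-fold higher in esophagus, with an adjusted p of 0.00406 in limma. Within mice it was 1.17, 1.14 and 2.06.

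*Rara* encodes the receptor found in most tissues, and both of its probes lie within 1 kilobase of each other on the plus strand of chromosome 11 (NM_001177302). The one at chr11:98836197-98836256 was at 10.26, 10.38 and 9.76 in esophagus and at 12.43, 12.30 and 11.44 in stomach. The one at chr11:98835350-98835409 was at 8.94, 9.09 and 9.08 in esophagus and at 10.78, 10.37 and 10.26 in stomach. On each probe the 3 stomach arrays were above the 3 esophagus arrays. The first differed by -1.92 (95% interval -2.60 to -1.24), 3.79-fold higher in stomach, with an adjusted p of 0.00423 in limma. The second differed by -1.43 (95% interval -1.84 to -1.02), 2.69-fold, with an adjusted p of 0.00142. The mouse 4 stomach array was the lowest of its tissue on both probes. The first of them and the *Rarg* probe hold the poly(A) hexamer near their ends.
Rara: agaaagAATAAAgttctatttattctataa
Rarg: tatttttgcaaAATAAAgtgatggaaactc

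*Rarb*, the receptor with the DR5 element shown above, was dim. Its probe at chr14:17263367-17263426 on the minus strand (NM_001289760) was at 5.04, 5.75 and 7.38 in esophagus and at 6.53, 6.80 and 6.45 in stomach. It was well above background on 2 of 3 esophagus arrays and on all 3 stomach arrays. The esophagus array of mouse 4 was the highest of all 6 and the other two esophagus arrays were the lowest, so the tissues overlapped. The difference of -0.53 (95% interval -1.75 to 0.68) was not called (adjusted p 0.624 in limma). Within mice it was -1.49, -1.04 and 0.93. The esophagus array of mouse 4 is the only one on the second slide, so a slide block and its omission give the same fit, in which the difference was -1.20 and was called (adjusted p 0.023). Without both arrays of mouse 4 it was -1.27 (adjusted p 0.0257), without the esophagus array of mouse 1 it was -0.026 (adjusted p 0.983), and under 75th percentile scaling it was -1.46 (adjusted p 0.421).

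The 2 other *Rarb* probes were not well above background on any array. The one at chr14:17264648-17264707 was at 4.86, 4.80 and 5.42 in esophagus and at 4.75, 5.12 and 4.87 in stomach. The one at chr14:17651424-17651483 was at 4.84, 4.76 and 4.93 in esophagus and at 4.91, 5.05 and 4.87 in stomach. Levels of different probes are not comparable, and only the first of the 3 gave a measured difference. That probe holds the poly(A) hexamer in its last bases.
Rarb: ttccatggagtctcctggcaaagAATAAAt

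The 5 hexamers printed above are those found in the last 30 bases of the 12 probes. Among all 55681 probes, 8.16% held AATAAA there. The other 7 member probes did not hold it there. Exon and UTR annotation on mm9 was not used here.

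The members varied among the esophagus arrays. The array of mouse 1 was the highest and that of mouse 4 the lowest for *Crabp2*, *Aldh1a3* and *Rdh10*, and the order was the reverse for the first *Rarb* probe. The SD was larger in esophagus than in stomach for 7 of the 12 probes, close to the 55.6% of all probes. Of the 8 squamous markers, each by its brightest probe, 5 were lowest on the mouse 4 array and 3 on the mouse 1 array. Their ranges over the esophagus arrays had a median of 0.60. By these probes *Sprr3*, a late differentiation gene with the widest range, was the one highest in mouse 1 and lowest in mouse 4 (15.62, 15.19 and 11.62 in mice 1, 2 and 4). *Trp63* also had that order on its probes at chr16:25892012-25892071 (13.46, 12.96 and 12.42) and chr16:25867718-25867777 (10.61, 10.43 and 10.24). Its probe at chr16:25821344-25821403 did not (11.57, 11.14 and 11.39). Of the 6 immune markers, *Cd68*, a lysosomal protein of macrophages, was the one with that order (14.77, 12.94 and 11.80). The esophagus array of mouse 4 also lies on its own slide and was scanned apart. The part of these in the spread of the retinoid genes was not tested.

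**Figure D3:**
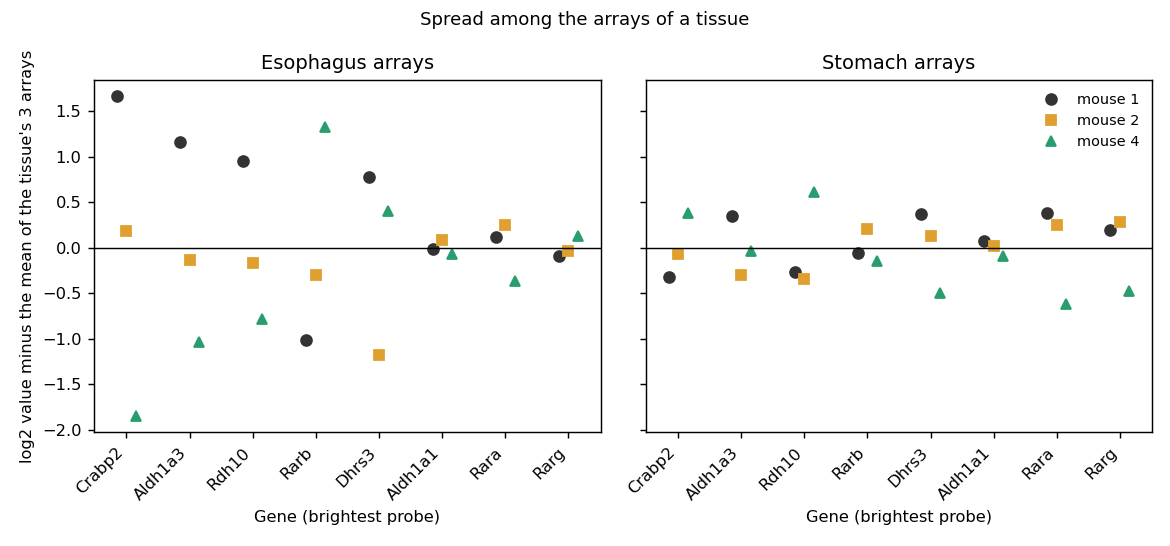
Log2 level of each array minus the mean of the 3 arrays of its tissue, for the brightest probe of the 8 members with a measured level, esophagus on the left and stomach on the right, with 1 symbol per mouse. In esophagus, mouse 1 is highest and mouse 4 lowest for *Crabp2*, *Aldh1a3* and *Rdh10*, the reverse holds for *Rarb*, and *Rarg* and *Aldh1a1* stay close to 0.

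Around the 9 genes, 59 further genes of retinoid handling were read, each by its brightest probe. Of these, 10 were higher in esophagus, 8 were higher in stomach and 41 were not called, 14 of them well above background on no array. Over all gene names read this way 14.9% were called, 7.15% higher in esophagus and 7.7% higher in stomach. The median difference of the 59 genes was 0.13, and that of all gene names was 0.03.

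Among 15 genes of retinol uptake, binding and storage, 3 were higher in esophagus and 5 in stomach. *Rbp2*, a cellular retinol binding protein of enterocytes, was at 11.01, 11.34 and 9.57 in esophagus and at 6.55, 6.52 and 6.72 in stomach, a difference of 4.05 (adjusted p 0.000523 in limma). *Rbp7*, of the same family, was 3.88 higher in esophagus and *Lpl*, a lipase that frees retinyl esters from lipoproteins, 1.11 higher. The other *Lpl* probe, not well above background in stomach, was not called (0.45, adjusted p 0.199 in limma). *Rbp4*, the secreted retinol carrier, was not well above background in esophagus and at least 47.5-fold higher in stomach, where it was at 10.90, 10.65 and 10.35. Its partner in plasma, *Ttr*, was at least 3.36-fold higher in stomach, and the carotenoid cleaving *Bco2* (-3.61) and the esterifying *Dgat1* (-0.83) were also higher there, *Dgat1* not under 75th percentile scaling (adjusted p 0.157). The retinol receptor *Stra6* was at 11.09, 7.24 and 8.70 in esophagus and at 11.99, 12.38 and 12.81 in stomach. Its difference of -3.38 passed (adjusted p 0.0373 in limma), but 5 of the 6 fits that left out 1 array did not call it, with an adjusted p of up to 0.126 without the stomach array of mouse 2. The size was -4.42 without the esophagus array of mouse 1 and -2.50 without that of mouse 2.

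Of 17 further retinol and retinal dehydrogenases and reductases, 1 was higher in each tissue and 15 were not called. *Adh1*, a cytosolic alcohol dehydrogenase that oxidizes retinol, was not well above background on the esophagus arrays (5.21, 5.02 and 4.99) and reached 14.01, 14.54 and 13.99 in stomach, at least 538-fold higher (adjusted p 1.22e-07 in limma). *Rdh1* was 0.78 higher in esophagus (adjusted p 0.0108), and this call was lost in 2 of the 6 fits without 1 array, those without the stomach array of mouse 1 (adjusted p up to 0.0596) or of mouse 2. *Rdh12* (1.30, adjusted p 0.0918) and *Dhrs9* (1.38, adjusted p 0.164) were not called.

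The retinoic acid degrading enzymes did not pass the test. *Cyp26b1* was at 12.51, 10.90 and 11.47 in esophagus and at 10.31, 10.60 and 10.13 in stomach, which did not overlap, with a difference of 1.28 (adjusted p 0.0703 in limma). *Cyp26a1*, the second gene with a DR5 element shown above, was at 5.04, 4.99 and 4.83 in esophagus and at 4.63, 4.92 and 4.92 in stomach, and *Cyp26c1* was also well above background on none. The other cytosolic carrier, *Crabp1*, was at 9.02, 8.15 and 7.39 in esophagus and not well above background in stomach, at least 10.1-fold higher in esophagus (adjusted p 0.000693). Both CRABP genes were thus higher in esophagus, *Crabp1* as a bound.

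Among 11 receptor partners and cofactors, 2 were higher in esophagus and 1 in stomach. *Rxrb* was at 13.07, 13.10 and 13.15 in esophagus and at 13.03, 13.37 and 12.86 in stomach, a difference of 0.02 (95% interval -0.37 to 0.41). *Rxrg* differed by 0.16 (adjusted p 0.853 in limma). The brightest *Rxra* probe was not called (0.58, adjusted p 0.264 in limma), but the second one was 1.32 higher in esophagus (adjusted p 0.000904), so the direction was shared and the call was not. The corepressor *Nrip1* was 1.14 higher in esophagus, and *Kmt2e* was higher in stomach (-0.61, adjusted p 0.0416). The *Kmt2e* call was lost in all 6 fits without 1 array, with an adjusted p of up to 0.126 without the stomach array of mouse 2. The *Nrip1* call was lost without the stomach array of mouse 1 or of mouse 2 (adjusted p up to 0.0647).

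Of 19 genes known to respond to retinoic acid, counting *Crabp2*, *Dhrs3* and *Rarb* again, 4 were higher in esophagus, 2 in stomach and 13 were not called. Those higher in esophagus included *Crabp2*, *Rarres1* and *Meis1*, and those higher in stomach were *Tgm2* and *Stra6*. *Tgm2*, a transglutaminase, was not well above background in esophagus and at 13.46, 14.01 and 13.04 in stomach, at least 367-fold higher there. On its other probe, also not well above background in esophagus, the bound was 144-fold. *Rarres1* was 1.68 higher in esophagus, and *Meis1*, 0.97 higher, lost its call in 4 of the 6 fits without 1 array (adjusted p up to 0.0933 without the stomach array of mouse 2). *Rarb* and *Cyp26a1*, the direct targets with DR5 elements, were dim or not well above background and not called.

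**Figure D4:**
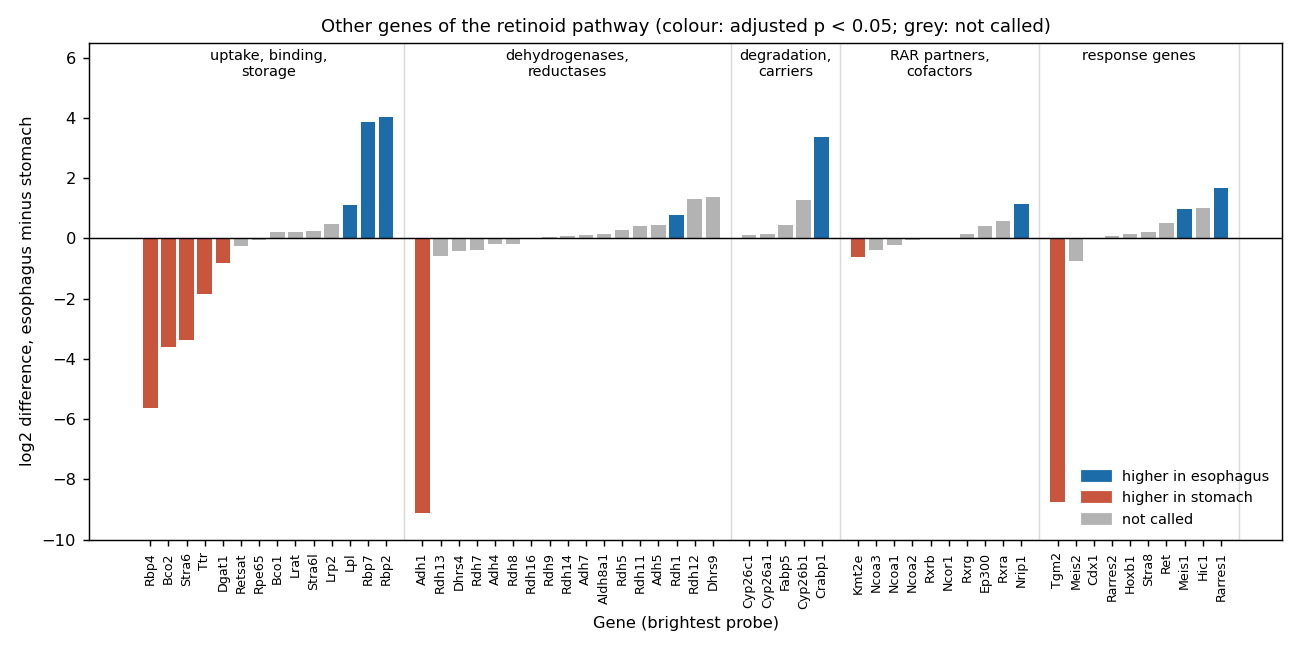
Difference in log2 level, esophagus minus stomach, for the brightest probe of 56 of the 59 further genes, by list, with called genes in color and genes not called in grey. A gene of several lists is drawn in the first, and bars are fitted differences also where the text gives a bound. Called genes lie on both sides of 0 in each list but that of degradation and carriers. The longest bars are those of *Adh1* and *Tgm2*, whose differences are known only as bounds (at least 538-fold and 367-fold).

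The genes most like 2 of the members over the 6 arrays were sought among 25074 named genes, as the smallest root mean square difference between levels centred on their own mean. For *Crabp2*, the member with the largest positive difference, these were *Ecm1* (0.20), *Ifi209* (0.30) and *Ifitm10* (0.38), whose tissue differences were 5.18, 5.97 and 5.29. For *Rdh10*, the called member with the largest negative one, they were *Phldb2* (0.24), *Arhgap29* (0.29) and *Nexmif* (0.30), at -2.99, -2.53 and -2.98. The likeness rests on 6 arrays, of which 3 pairs share a mouse, and is given as a description.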

How the data were processed

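RNA of 6 organoid cultures was hybridized to single-color arrays, 1 array per tissue and mouse. The arrays were read with Feature Extraction 11.5.1.1 per the file headers. Per spot, the deposited scanner files give the mean and median intensity, the local background intensity and flags, among them the flag for spots well above background. The log2 values used for the main results are the authors' deposited table, for which they state background correction and quantile normalization. The table was rebuilt from the median intensities by normexp (offset 15) and quantile normalization to within 0.0726 on the log2 scale, with a median deviation of 0.00433. The 2029 empty cells of the table were the outlier-marked spots.

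Spots of a probe were averaged, and lmFit and eBayes (limma 3.58.1, R 4.3.3) were run on the 6 arrays with tissue as the only term, and p-values were adjusted by Benjamini-Hochberg over 55681 probes. The fit was tested on simulated data. A probe below that flag on every array of a tissue was given as a bound, the mean of the bright tissue over the mean of, per array, the higher of the probe's own level and the lowest level among probes well above background. Array number limits precision. Coordinates are those of the files (mm9), and promoter sequences are from RefSeq (GRCm38.p6).

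The labels give the mouse of each array, so the replicate numbers pair the tissues. Across probes, the deviations of an array from its tissue mean had r = 0.025, 0.012 and -0.0079 with the other array of its mouse, and -0.073 to 0.040 with those of different mice. The members and gene lists were chosen with earlier results of these data known, and support nothing by their choice. The genes named are every member probe, the called genes of the 5 retinoid lists, the Rxr and Cyp26 genes, and the 3 genes most like the called members with the largest positive and negative difference that were well above background on all 6 arrays. A few genes of these lists are counted but not reported here by name. Other genes named were chosen after their values were seen, among them *Aldh1a7*, *Rdh12*, *Dhrs9*, *Sprr3* and *Cd68*. Alternatives were scanner mean intensities (normexp offset 16 or 50), 75th percentile scaling, outlier spots kept, dim probes left out, trended robust eBayes, the mouse or slide as a block, each array left out, the mean of a gene's probes, a 2-fold threshold and the scanner's looser flag for a detected spot. Leaving out both arrays of mouse 4 was chosen after seeing the data. Columns of the authors' own comparisons were not used.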

Additional observations from a re-analysis of the deposited data

How the results depend on the processing

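The 7 called member probes kept their direction and their call under every alternative run, with an adjusted p of at most 0.034, and *Dhrs3* was never called (adjusted p 0.0741 to 0.403). With the mouse as a replicate block 7 of 12 member probes, 8 by the methods' rule and 15 of the 59 wider genes were called, and the block changed no member's call. Over all 55681 probes this block gave 6153 calls, against 6770 without it. Leaving out each array in turn gave 7 to 8 called member probes, 7 to 9 by the methods' rule, 12 to 19 wider genes (12 without the stomach array of mouse 2) and 17 of 18 identity markers throughout. In the same fits 4091 to 7415 of all 55681 probes were called, 4152 of them without the stomach array of mouse 2, against 6770 in the main fit. The eighth probe was the first *Rarb* probe (-1.20, adjusted p 0.023, without the esophagus array of mouse 4 or with the slide as a block; -1.27, adjusted p 0.0257, without both arrays of mouse 4). Scaling to the 75th percentile moved the median of all probes from 0.02 to 0.19. Signs turned only for probes not well above background. *Aldh1a2* was 0.0010 with an offset of 50, 0.52 under 75th percentile scaling, 0.089 with the slide as a block, 0.081 without both arrays of mouse 4, and between -0.23 and 0.091 with each array left out, being positive without the stomach array of mouse 1 (0.039) or the esophagus array of mouse 2 or 4. The *Rarb* probe at chr14:17264648-17264707 was -0.085 with the slide as a block, -0.108 without both arrays of mouse 4 and -0.085 to 0.22 with each array left out, and the one at chr14:17651424-17651483 was 0.098 under 75th percentile scaling. Below the flag on all arrays of at least 1 tissue were 3 member probes, and 1 by the looser flag. The causes were not tested. Dim probes have only bounds.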
